A study of Homo sapiens with 12 samples.

Results

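RNA levels of 9 growth-factor and stress response genes were followed in SW480 ADH cells that carried 1 of 3 forms of SPRY2 or were mock transfected. The genes were 4 of the Fos family (FOS, FOSB, FOSL1 and FOSL2), 3 of the Jun family (JUN, JUNB and JUND), EGR1 and ATF3. They were taken by their Ensembl gene IDs, and all 9 were found among the 24916 gene IDs of the expression table, whose values are RMA-processed log2 levels from Affymetrix arrays. SW480 ADH cells grow attached and derive from SW480, an established line from a human colon carcinoma. The cells were transfected with SPRY2 Y55F (a tyrosine replaced by phenylalanine), with SPRY2 S112A (a serine replaced by alanine), with wild-type SPRY2 (WT), or were mock transfected (Mock), and each of the 4 groups has 3 arrays. All groups were grown for 72 h in serum-containing medium, and the vector, its promoter and whether a group is 1 clone or several populations are not given in the sources used here. Replicate numbers are not tied by the labels to the 3 independent experiments stated, so the p-values take in only the array-to-array spread, part of which may be technical. The level of SPRY2 itself and markers of the cell line were not analysed here, because the table gives IDs and the names of the 9 genes came from the rule that chose them. The median over all IDs was 7.20 to 7.32 (log2) in the 12 arrays, and the 3 arrays per group limit the precision of every value.

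AP-1 is a transcription factor made of pairs of basic leucine zipper proteins. Fos proteins bind DNA as partners of Jun proteins, while Jun proteins can also pair with each other, and ATF3 is a related leucine zipper protein that stress induces. FOS, FOSB, JUN, JUNB, EGR1 and ATF3 are immediate early genes, transcribed within minutes of growth factor signalling without new protein synthesis, largely through ERK, other MAP kinases and serum response factor. Sprouty2, the product of SPRY2, acts inside the cell as a feedback regulator of receptor tyrosine kinase signalling to ERK, and the tyrosine that Y55F removes is phosphorylated after growth factor stimulation and binds the ubiquitin ligase CBL.

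Most of these genes were highest in Y55F cells. Against Mock, 6 of the 9 rose in Y55F cells, by 1.34-fold (FOSL1) to 1.77-fold (FOS), and the other members, FOSL2, EGR1 and ATF3, did not pass the test, an adjusted p under 0.05 in limma. In this comparison 8.18% of all gene IDs rose. More cells that express a gene and more RNA per cell cannot be told apart in such bulk samples. In S112A cells 2 of the 9 rose, EGR1 by 1.45-fold and JUNB by 1.29-fold, beside 5.88% of all IDs. In WT cells 0 of the 9 passed limma's test in either direction, beside 9.44% of all IDs, and 3 of the 9 had an unadjusted p under 0.05, beside 18.2% of all IDs. Over all 4 groups, limma's moderated F test found differences for 7 of the 9 genes, all but FOSL2 and ATF3, where 29.3% of all gene IDs passed.

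The promoters of FOS, FOSB, JUN, JUND, JUNB and EGR1 are shown here as the members with a window that passed a test against Mock. The motifs searched include the cyclic AMP response element (CRE). The windows are RefSeq's (GRCh38.p14), 300 bases each, from 250 bases before the gene start to 50 after it, written 5′ to 3′ along the gene. Capitals mark matches on either strand to the CRE core TGACG and to the CArG box, the core of the serum response element. They also mark TGACNTCA, which takes in the CRE and its Jun-type variant, and TGANTCA, which takes in the classical AP-1 site. Any base was allowed at N, so the shares of all windows given for these patterns take in other sequences too. A match to TGACNTCA with G at the N also counts as a match to the core on each strand.
FOS promoter, chr14:75278578-75278877, plus strand: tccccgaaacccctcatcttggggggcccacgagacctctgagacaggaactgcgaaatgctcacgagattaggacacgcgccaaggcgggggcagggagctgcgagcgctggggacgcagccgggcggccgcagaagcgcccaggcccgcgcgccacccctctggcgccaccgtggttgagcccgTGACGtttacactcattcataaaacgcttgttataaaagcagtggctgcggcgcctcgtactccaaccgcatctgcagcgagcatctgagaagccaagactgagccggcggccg
FOSB promoter, chr19:45467746-45468045, plus strand: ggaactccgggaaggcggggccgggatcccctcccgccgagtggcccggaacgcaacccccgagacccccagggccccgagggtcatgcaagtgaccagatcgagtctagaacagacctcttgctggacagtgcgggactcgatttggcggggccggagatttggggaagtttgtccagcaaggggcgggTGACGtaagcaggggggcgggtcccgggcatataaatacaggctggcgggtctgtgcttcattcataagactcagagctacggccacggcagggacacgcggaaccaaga
JUN promoter, chr1:58783998-58784297, minus strand: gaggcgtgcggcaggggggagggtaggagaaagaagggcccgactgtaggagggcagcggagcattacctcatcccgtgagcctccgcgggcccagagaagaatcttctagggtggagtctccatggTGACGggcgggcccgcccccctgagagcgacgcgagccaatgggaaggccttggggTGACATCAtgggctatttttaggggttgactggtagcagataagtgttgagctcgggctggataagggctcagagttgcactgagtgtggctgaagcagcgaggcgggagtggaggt
JUND promoter, chr19:18281573-18281872, minus strand: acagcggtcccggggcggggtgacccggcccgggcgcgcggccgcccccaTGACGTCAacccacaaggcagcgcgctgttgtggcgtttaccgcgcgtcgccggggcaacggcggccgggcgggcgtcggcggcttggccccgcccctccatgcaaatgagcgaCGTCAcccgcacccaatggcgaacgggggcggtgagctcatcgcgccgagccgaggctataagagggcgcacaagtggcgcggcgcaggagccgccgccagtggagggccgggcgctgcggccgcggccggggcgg
JUNB promoter, chr19:12791236-12791535, plus strand: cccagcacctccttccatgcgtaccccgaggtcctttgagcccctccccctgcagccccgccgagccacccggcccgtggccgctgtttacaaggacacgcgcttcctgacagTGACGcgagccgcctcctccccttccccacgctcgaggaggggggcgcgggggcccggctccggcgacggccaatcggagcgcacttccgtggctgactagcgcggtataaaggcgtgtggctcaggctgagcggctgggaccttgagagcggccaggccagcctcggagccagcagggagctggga
EGR1 promoter, chr5:138465229-138465528, plus strand: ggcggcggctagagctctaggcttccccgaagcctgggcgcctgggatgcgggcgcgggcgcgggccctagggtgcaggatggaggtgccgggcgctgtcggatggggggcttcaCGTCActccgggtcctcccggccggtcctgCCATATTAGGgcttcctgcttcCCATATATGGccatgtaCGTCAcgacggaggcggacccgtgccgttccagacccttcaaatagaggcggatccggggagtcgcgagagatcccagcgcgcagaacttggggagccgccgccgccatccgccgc

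Of the 9 genes, 8 matched a window, all but FOSL1, and ATF3 matched 2. All 8 held TGACG or TGACNTCA in at least 1 window, ATF3 in only 1 of its 2. Counted by window and not by gene, 29.4% of 35116 windows of this length held either. The core TGACG was found in 7 of the 8 genes (24.6% of all windows), and TGACNTCA in 3, JUN, JUND and ATF3 (7.72%). In FOS and FOSB the core begins 64 and 60 bases before the gene start, and in JUN the TGACNTCA match begins 67 bases before it. EGR1 alone among the 8 had the CArG box within its window, with 2 copies that begin 105 and 83 bases before the gene start. Of all windows 1.29% hold at least 1. Bases more than 250 before the gene start were not searched, so a site further upstream in FOS or another gene would be missed. TGANTCA was found only in FOSL2, 5 bases after the start, and in 7.71% of all windows. FOSL2 and ATF3, which passed no test in the unweighted fit to all 12 arrays, had matches too. FOSL2 held the core TGACG without TGACNTCA, and ATF3 held the Jun-type variant TGACATCA without the core. The matches are letters in a window and were not tested for binding.

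**Figure D1:**
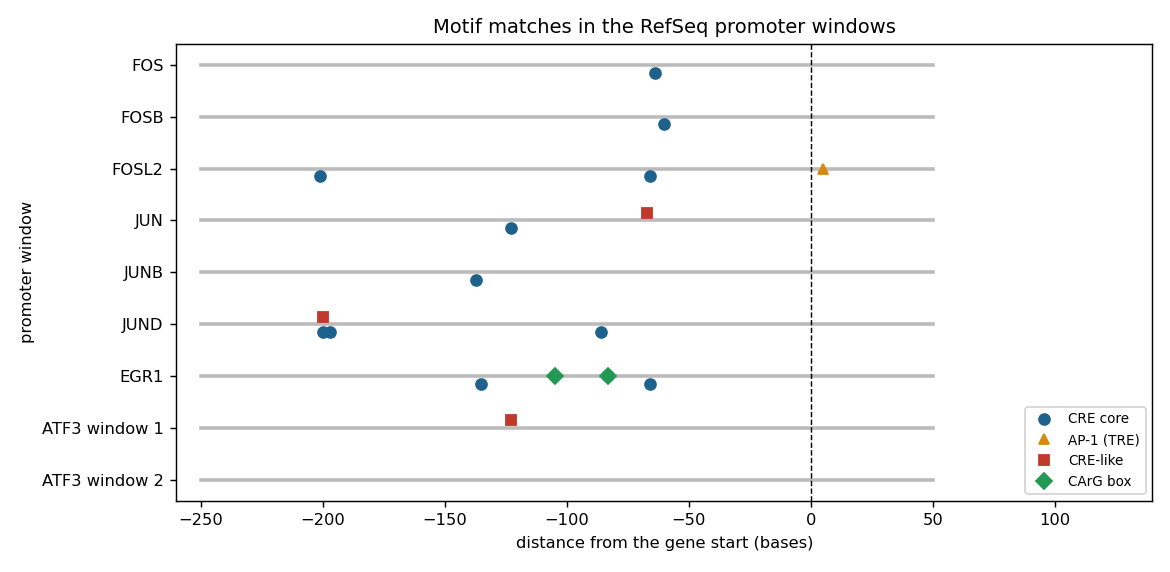
Motif matches in the 9 promoter windows of 8 genes (ATF3 has 2), with the distance from the gene start in bases on the horizontal axis and 1 grey line per window. Circles mark the CRE core, squares the CRE-like match TGACNTCA, triangles the AP-1 site and diamonds the CArG box, and EGR1 is the gene with 2 diamonds, at -105 and -83.

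FOS (ENSG00000170345), the founding Fos protein and the classical early target of serum response factor, had the widest range of group means of the 9 genes, 1.13 on the log2 scale. Its levels were 10.64, 10.96 and 10.65 in Y55F cells, 9.73, 10.01 and 9.86 in S112A cells, 9.52, 9.65 and 9.69 in WT cells and 9.87, 10.05 and 9.85 in Mock cells (log2). The Y55F arrays all lay above the 9 others, the WT arrays all lay below those of every other group, and the S112A and Mock arrays overlapped. In Y55F cells FOS was 1.77-fold above Mock, a log2 difference of 0.82 ± 0.10 (SE; adjusted p = 0.000130 in limma). Beside the other constructs it was 1.84-fold above S112A cells (adjusted p = 5.58e-05 in limma) and 2.19-fold above WT cells (adjusted p = 8.91e-06 in limma). The WT value differed from Mock by -0.31 ± 0.10 with adjusted p = 0.0910 in limma, which missed the threshold of 0.05.

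That WT difference in FOS changed its call with the fit. Across all gene IDs, deviations of same-numbered WT and Mock arrays correlated at 0.14, 0.46 and 0.36 for replicates 1, 2 and 3. For S112A and Mock the values were 0.088, 0.047 and -0.29. Every pair was above 0.1 only for WT with Mock and for Y55F with S112A. FOS itself deviated by 0.067 in WT replicate 3 and by -0.070 in Mock replicate 3, and in a shared direction in replicates 1 and 2. With the replicate number as a block shared by all groups, not a pairing of WT with Mock alone, the adjusted p was 0.0113 in limma. It was 0.0395 with each array centred on its median, 0.0374 with only the WT and Mock arrays, 0.0355 with array weights and 0.0415 without Y55F replicate 2. Over the 20 alternatives the difference stayed between -0.34 and -0.24.

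FOSB (ENSG00000125740), a Fos protein that is also induced by growth factors, had levels of 8.00, 8.50 and 8.05 in Y55F cells, 7.48, 7.49 and 7.47 in S112A cells, 7.62, 7.61 and 7.66 in WT cells and 7.39, 7.72 and 7.03 in Mock cells (log2). All 3 Y55F arrays lay above the rest, while the Mock arrays spread across the S112A and WT values. The SD was 0.35 in Mock and 0.01 in S112A cells, so the spread shared by the 4 groups understates that of Mock, and p-values against Mock may be too small. FOSB was 1.74-fold above Mock in Y55F cells, a log2 difference of 0.80 ± 0.15 (SE; adjusted p = 0.00336 in limma). It was 1.63-fold above S112A (adjusted p = 0.00634 in limma) and 1.47-fold above WT (adjusted p = 0.0241 in limma).

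FOSL1 (ENSG00000175592) encodes FRA1, a Fos protein that accumulates when ERK signalling is sustained. Its levels were 11.23, 11.30 and 11.43 in Y55F cells, 10.70, 10.78 and 10.97 in S112A cells, 11.09, 11.04 and 11.09 in WT cells and 10.92, 10.89 and 10.89 in Mock cells (log2). The Y55F arrays were the highest and the WT arrays came next, with no overlap between these groups or between WT and either S112A or Mock. In Y55F cells FOSL1 was 1.34-fold above Mock, a log2 difference of 0.42 ± 0.07 (SE; adjusted p = 0.00146 in limma). The difference between WT and Mock, 0.18 ± 0.07, did not pass (adjusted p = 0.189 in limma). S112A cells, whose arrays overlapped with Mock, were 1.20-fold below WT cells (adjusted p = 0.0197 in limma). That call was lost with only the S112A and WT arrays (adjusted p = 0.0512 in limma) and without WT replicate 1 or 3 or S112A replicate 1 or 2 (adjusted p = 0.0608 to 0.0801 in limma).

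FOSL2 (ENSG00000075426), which encodes the Fos protein FRA2, varied least among the Fos genes. It stood at 10.80, 10.85 and 11.01 in Y55F cells, 10.68, 10.59 and 10.90 in S112A cells, 10.75, 10.70 and 10.63 in WT cells and 10.72, 10.75 and 10.77 in Mock cells (log2). The Y55F arrays lay above the WT and Mock arrays but overlapped with S112A, where replicate 3 was high. None of its 6 pairwise differences passed the test in limma's unweighted fit to all 12 arrays. The difference between Y55F and Mock was 0.14, with a 95% interval of -0.04 to 0.31. Without S112A replicate 3, FOSL2 passed in Y55F against S112A, with a difference of 0.25 (adjusted p = 0.0273 in limma), as it did with array weights (0.27, adjusted p = 0.00953 in limma), and against WT, with a difference of 0.19 (adjusted p = 0.0490 in limma).

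JUN (ENSG00000177606), the Jun protein that the JNK kinases phosphorylate, was also highest in Y55F cells. Its levels were 9.98, 10.33 and 9.94 in Y55F cells, 9.12, 9.44 and 9.09 in S112A cells, 9.45, 9.58 and 9.72 in WT cells and 9.14, 9.50 and 9.20 in Mock cells (log2). Every Y55F array lay above the other 9, the WT arrays all lay above the S112A arrays, and WT and Mock overlapped. JUN was 1.75-fold above Mock in Y55F cells, a log2 difference of 0.80 ± 0.13 (SE; adjusted p = 0.00116 in limma). It was 1.82-fold above S112A (adjusted p = 0.000521 in limma) and 1.42-fold above WT (adjusted p = 0.0182 in limma). S112A cells differed from WT cells by -0.36 ± 0.13, with adjusted p = 0.0756 in limma. This difference passed without S112A replicate 2 (-0.48, adjusted p = 0.0313 in limma) and without Y55F replicate 2 (adjusted p = 0.0481 in limma).

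JUNB (ENSG00000171223), a Jun protein that can act against JUN in proliferation, was the only member that passed the test against Mock in both mutants. It stood at 9.36, 9.50 and 9.57 in Y55F cells, 9.19, 9.36 and 9.45 in S112A cells, 9.01, 8.99 and 9.13 in WT cells and 8.92, 9.04 and 8.92 in Mock cells (log2). The arrays of both mutants lay above all WT and Mock arrays, and the mutants overlapped with each other. JUNB was 1.43-fold above Mock in Y55F cells, a log2 difference of 0.52 ± 0.08 (SE; adjusted p = 0.000588 in limma). In S112A cells it was 1.29-fold above Mock (0.37 ± 0.08, adjusted p = 0.00652 in limma). The 2 mutants differed by 0.15, with a 95% interval of -0.02 to 0.32 and adjusted p = 0.254 in limma.

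JUND (ENSG00000130522), a Jun protein that is usually present without stimulation and restrains growth in several cell types, had levels of 9.58, 9.63 and 10.05 in Y55F cells, 8.97, 9.08 and 9.41 in S112A cells, 8.93, 8.95 and 8.98 in WT cells and 9.13, 9.21 and 9.07 in Mock cells (log2). All Y55F arrays lay above the rest, with replicate 3 standing well above the other Y55F arrays, and the WT arrays all lay below the Mock arrays. The rise in Y55F cells was 1.53-fold against Mock, a log2 difference of 0.62 ± 0.12 (SE; adjusted p = 0.00459 in limma). Without Y55F replicate 3 it was 0.47, with adjusted p = 0.0219 in limma. JUND was also 1.51-fold above S112A (adjusted p = 0.00452 in limma) and 1.74-fold above WT (adjusted p = 0.000674 in limma). Its SD was 0.26 in Y55F and 0.23 in S112A cells, beside 0.03 in WT and 0.07 in Mock cells. The spread shared by the 4 groups thus understates that of the mutants, and p-values between them may be too small. Over the alternatives the adjusted p against S112A reached 0.0430 in limma. WT differed from Mock by -0.18 ± 0.12 (adjusted p = 0.577 in limma).

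EGR1 (ENSG00000120738), a zinc finger factor outside AP-1 and a standard readout of ERK signalling to serum response factor, followed another order. Its levels were 11.96, 12.29 and 12.23 in Y55F cells, 12.28, 12.60 and 12.55 in S112A cells, 12.02, 12.16 and 11.87 in WT cells and 12.07, 12.07 and 11.67 in Mock cells (log2). The S112A arrays lay above all WT and Mock arrays, and the Y55F arrays overlapped with every other group. EGR1 was 1.45-fold above Mock in S112A cells, a log2 difference of 0.54 ± 0.13 (SE; adjusted p = 0.0150 in limma). This call was lost without Mock replicate 3 (0.41, adjusted p = 0.0595 in limma) and without S112A replicate 2 (0.48, adjusted p = 0.0694 in limma). In Y55F cells EGR1 differed from Mock by 0.22, with a 95% interval of -0.06 to 0.51 (adjusted p = 0.341 in limma). The difference of Y55F from S112A, -0.32 ± 0.13, did not pass either (adjusted p = 0.128 in limma), but passed with array weights (-0.38, adjusted p = 0.0201 in limma).

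ATF3 (ENSG00000162772) stood at 6.56, 6.52 and 6.70 in Y55F cells, 6.50, 6.49 and 6.66 in S112A cells, 6.28, 6.53 and 6.61 in WT cells and 6.33, 6.47 and 6.41 in Mock cells (log2). The arrays of both mutants lay above those of Mock, by small amounts, and the WT arrays had the widest spread, with an SD of 0.17. None of its pairwise differences passed in the unweighted fit, and the largest, Y55F against Mock, was 0.19 with a 95% interval of 0.0017 to 0.38 and adjusted p = 0.192 in limma. With array weights ATF3 passed against Mock in Y55F cells (0.24, adjusted p = 0.0426 in limma) and in S112A cells (0.15, adjusted p = 0.0429 in limma). The weights were 5.31 for Mock replicate 1 and 6.06 for S112A replicate 2, beside 0.47 to 0.70 for the other arrays of these groups. Weighted values of Mock and of S112A thus leaned on a single array each. All 9 genes, ATF3 included, lay outside the third of gene IDs with the lowest mean.

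**Figure D2:**
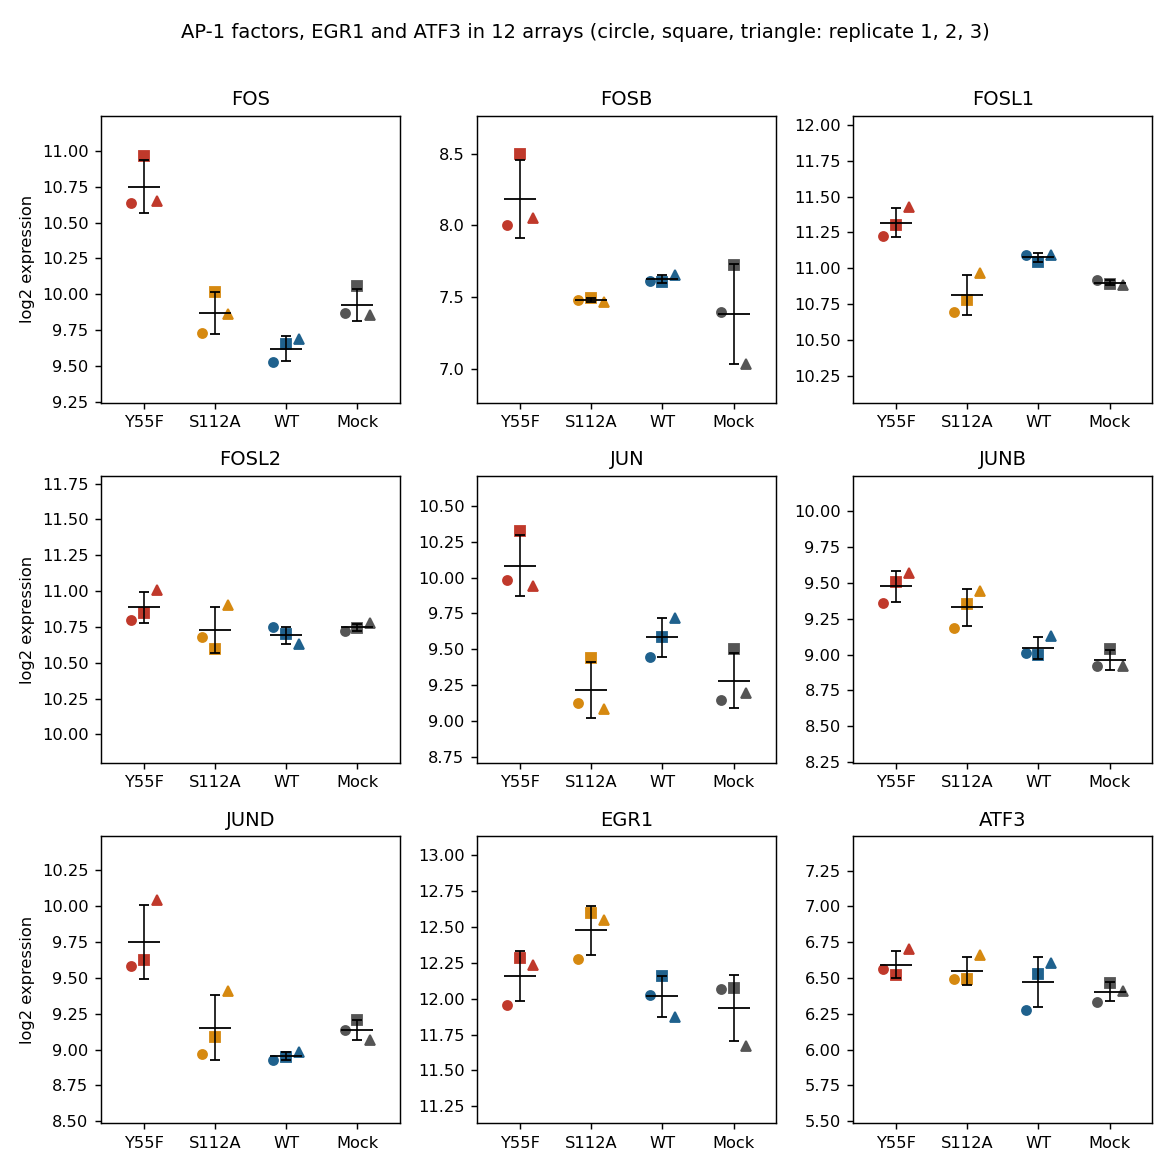
Log2 expression of each gene in the 12 arrays, with the groups on the horizontal axis, 1 symbol per array (circle, square and triangle for replicates 1, 2 and 3) and the mean ± SD of each group (n = 3) in black. Every panel spans the same length of the log2 axis. The Y55F arrays of FOS, FOSB, FOSL1, JUN and JUND lie above all other arrays, and EGR1 is highest in S112A cells.

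The comparison of Y55F with Mock asked how cells with the tyrosine mutant differed from mock-transfected cells. Of the Fos genes 3 of 4 rose, FOS, FOSB and FOSL1, and of the Jun genes 3 of 3. Median centring of the arrays gave 2652 IDs that rose and 1505 that fell, in place of 2039 and 1980, and the 6 calls were kept. At least 1.5-fold rises were seen for 4 of them, FOS, FOSB, JUN and JUND, where 1.57% of all IDs rose as much. None of the 9 fell, and all 9 differences were positive. For 8 of the 9, all but EGR1, the 3 Y55F arrays lay above the 3 Mock arrays, as they did for 15.3% of all IDs. The median log2 difference was 0.52 over the 9 genes and 0.00045 over all IDs. Each of the 6 calls was kept without any 1 array and under the other alternatives that set no minimum fold.

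S112A cells were compared with Mock in the same way for the serine mutant. EGR1 and JUNB rose, 1 of the 3 Jun genes and none of the 4 Fos genes. The other members did not pass, and FOS, FOSB, FOSL1, FOSL2, JUN and JUND all overlapped with Mock. The 95% intervals of these 6 genes reached at most 0.44 above and 0.35 below Mock on the log2 scale. The median difference was 0.02 over the 9 genes and -0.01 over all IDs. The count fell to 1 without Mock replicate 3 or without S112A replicate 2, since the call of EGR1 was then lost.

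WT cells were compared with Mock to see how cells with wild-type SPRY2 differed from mock-transfected cells. The 3 genes with an unadjusted p under 0.05, a level that 18.2% of all IDs reached, were FOS, FOSL1 and JUN. FOS was lower and FOSL1 and JUN were higher in WT than in Mock by their means, so the differences did not share a direction. The median difference was 0.08 over the 9 genes and 0.02 over all IDs. With the replicate number as a block FOS alone passed, 1 of the 9, beside 10.7% of all IDs in that fit. FOS also passed without Y55F replicate 2, at the adjusted p of 0.0415 given above.

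**Figure D3:**
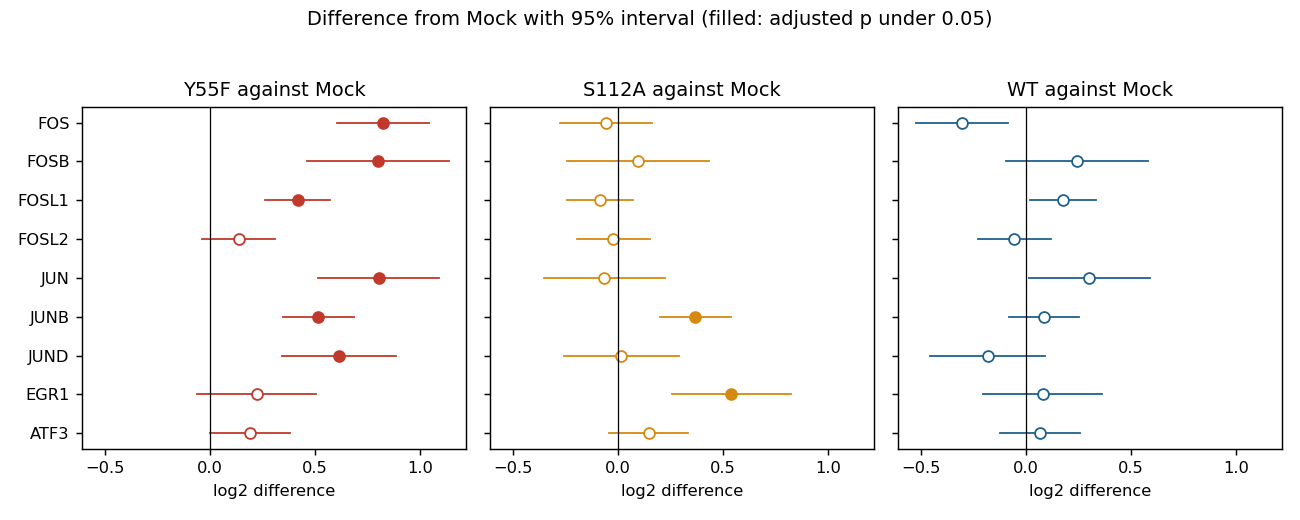
Log2 difference of each gene from Mock in Y55F, S112A and WT cells, with limma's 95% interval. Filled points passed at an adjusted p of 0.05: 6 genes in Y55F cells, EGR1 and JUNB in S112A cells and none in WT cells. The 3 panels share the Mock arrays.

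The direct comparisons tested whether cells with different constructs differed from each other. Y55F cells had higher levels than S112A cells for 5 of the 9 genes, FOS, FOSB, FOSL1, JUN and JUND, where 9.92% of all gene IDs were higher. None of the 9 was lower, where 2244 of the 24916 IDs were. These 5 calls were kept without any 1 array. For these genes cells with the tyrosine mutant differed from cells with the serine mutant by 0.50 ± 0.07 (FOSL1) to 0.88 ± 0.10 (FOS) (log2). The parts of the mutation, of the level of the construct and of differences between clones cannot be told apart and were not tested. The median difference was 0.50 over the 9 genes and 0.01 over all IDs.

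Y55F cells also had higher levels than WT cells for 6 of the 9 genes, the same 6 that rose against Mock, where 8.79% of all gene IDs were higher. The range was 1.18-fold (FOSL1, adjusted p = 0.0326 in limma) to 2.19-fold (FOS), and the calls of FOS, JUNB and JUND were kept without any 1 array. Median centring of the arrays split the calls over all IDs here into 2948 higher and 1916 lower, in place of 2190 and 2603. The count of the 9 genes fell to 3 without WT replicate 1, WT replicate 2 or Y55F replicate 2, where FOSB, FOSL1 and JUN no longer passed. Without either WT array the differences stayed close to those over all 12 arrays, at 0.55 for FOSB in place of 0.56, 0.22 and 0.25 for FOSL1 in place of 0.24, and 0.43 and 0.50 for JUN in place of 0.50. Without Y55F replicate 2 they were 0.40 for FOSB, 0.25 for FOSL1 and 0.38 for JUN. Without WT replicate 3 FOSB and FOSL1 did not pass, with differences of 0.57 and 0.25. FOSL1 was also lost without Y55F replicate 3, with a difference of 0.19.

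S112A cells differed from WT cells at 3 of the 9 genes. EGR1 was 1.37-fold higher (adjusted p = 0.0240 in limma) and JUNB 1.22-fold higher (adjusted p = 0.0198 in limma), where 9.19% of all gene IDs were higher. FOSL1 was lower, where 11.9% were. Median centring of the arrays turned the balance over all IDs to 2622 higher and 2447 lower, in place of 2290 and 2953. Without WT replicate 1 none of the 9 passed, and 1 passed without WT replicate 3 (JUNB), S112A replicate 2 (JUN) or S112A replicate 3 (FOSL1). JUNB was also lost without WT replicate 2, and FOSL1 without S112A replicate 1. Over the alternatives the log2 differences were 0.39 to 0.56 for EGR1, 0.22 to 0.35 for JUNB and -0.34 to -0.20 for FOSL1.

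**Figure D4:**
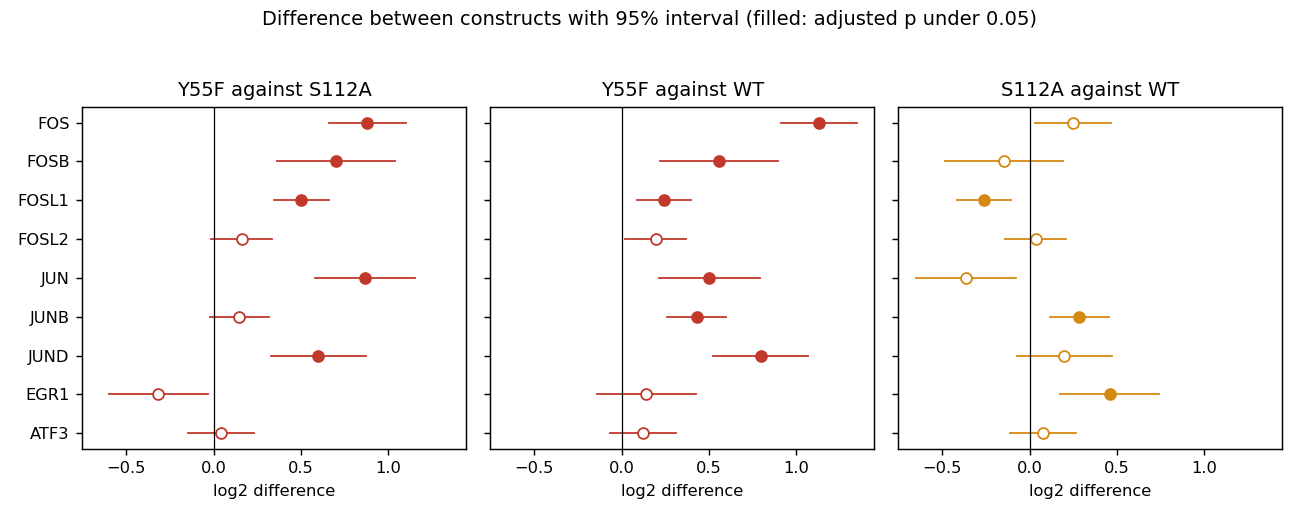
Log2 difference of each gene between constructs, Y55F against S112A, Y55F against WT and S112A against WT, with limma's 95% interval. Filled points passed at an adjusted p of 0.05: 5, 6 and 3 genes, of which FOSL1 in S112A against WT is the only one below 0.

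Arrays of the same group differed by replicate number, and the 9 genes did so in different ways. In Y55F and in S112A cells, FOS, FOSB, JUN and EGR1 were highest in replicate 2, and FOSL1, FOSL2, JUNB, JUND and ATF3 were highest in replicate 3. In Y55F replicate 2, for example, JUN deviated by 0.24 and JUND by -0.12 from its group mean (log2). For FOSB in S112A cells the arrays spanned little, with replicate 2 only 0.013 above the mean. The number of the highest array was thus the same in both mutants for 9 of 9 genes, beside 47.8% of all gene IDs. Between WT and Mock it was the same for 2 of 9, beside 47.6% of all IDs. EGR1 was highest in replicate 2 in all 4 groups, and FOS, FOSB and JUN in 3 of the 4. In Mock cells EGR1 was nearly equal in replicates 2 and 1, at 12.072 and 12.066. Over all IDs, replicate 2 was highest for 39.5% in Y55F, 27.2% in S112A, 25.6% in WT and 43.5% in Mock cells. The share of IDs with replicate 2 highest in several groups at once was not computed. Y55F replicate 1 was the highest array of its group for 0 of the 9 genes, beside 31.7% of all IDs. S112A replicate 1 was highest for 0 of 9, beside 32.3%. Mean deviations of the 9 genes in these arrays were -0.12 and -0.11, where the means over all IDs were -0.0059 and -0.0044. The labels do not say what a replicate number marks, and the part of a shared handling of same-numbered cultures was not tested.

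**Figure D5:**
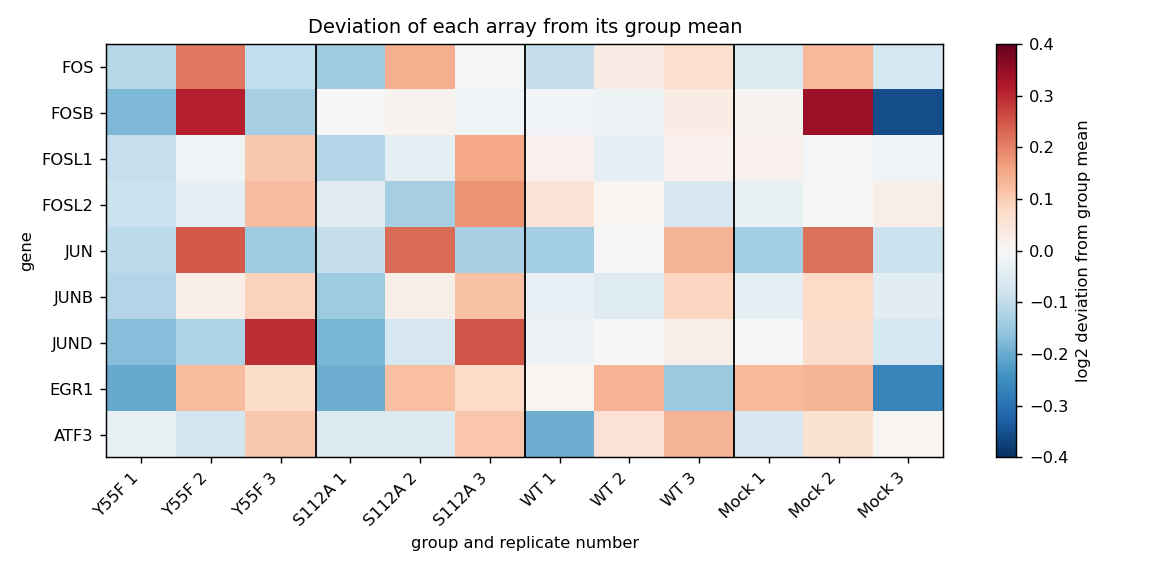
Deviation of each array from its group mean (log2, colour scale from -0.4 to 0.4) for the 9 genes, with the arrays in columns by group and replicate number. In Y55F and S112A cells the highest square of FOS, FOSB, JUN and EGR1 stands in replicate 2, and that of FOSL1, FOSL2, JUNB, JUND and ATF3 in replicate 3. EGR1 is also above its mean in replicate 3 of both mutants, and FOSB in S112A cells is close to 0 throughout.

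FOS and JUN had the widest ranges of group means, 1.13 and 0.87, and were set against all other gene IDs by the root mean square difference of profiles over the 12 arrays, each centred on its own mean. The ID nearest to FOS was ENSG00000070731, at 0.125 on the log2 scale, with means of 8.13 ± 0.12 in Y55F cells, 7.17 ± 0.18 in S112A cells, 7.21 ± 0.07 in WT cells and 7.45 ± 0.10 in Mock cells (SD, n = 3). Nearest to JUN was ENSG00000134072, at 0.124, with means of 9.39 ± 0.07 in Y55F cells, 8.53 ± 0.07 in S112A cells, 8.92 ± 0.09 in WT cells and 8.63 ± 0.10 in Mock cells (SD, n = 3). Neither ID is paired with a gene name in the tables used here. Among the 9 genes themselves, JUN ranked 2 among all other IDs by nearness to FOSB, and FOSB ranked 5 by nearness to JUN, at a difference of 0.157. Of the other pairs, JUND ranked 61 and JUN ranked 241 by nearness to FOS, FOS ranked 708 and JUND 1903 by nearness to JUN, and EGR1 ranked 16796 by nearness to FOS and 21164 by nearness to JUN.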

How the data were processed

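Total RNA of 12 cultures was labelled and hybridised to Affymetrix arrays, 3 per group. The deposited values are log2 expression per Ensembl gene ID and array, made by the authors with RMA and affy per the submitters' processing notes; versions, array model, genome build and annotation are not given in the sources used here. That the scale is log2 was read from the values, 3.91 to 14.12. RMA values are relative and not absolute levels, and large differences are compressed near the lower end of the scale.

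Samples were grouped by their titles. All 24916 gene IDs were fitted with limma 3.58.1 in R 4.3.3, with 1 mean per group over 12 arrays (8 residual degrees of freedom), and tested with eBayes. Benjamini-Hochberg adjustment ran over all IDs within each comparison, with a threshold of 0.05, and folds were computed as 2 raised to the log2 difference. The spread shared by the groups understates the error of a group with more variable arrays. Comparisons with Mock share the Mock arrays. The procedure was also run on simulated data, with independent arrays and the same spread in every group. That run does not cover spread shared by same-numbered arrays or unequal spread between groups. The 9 genes and all lists were chosen with earlier results of these data known. By the rule for named genes all 9 were named, with the 2 IDs nearest in profile to each of the 2 genes of widest range, of which the nearest to each is printed. Lists of other immediate early genes, leucine zipper partners, upstream regulators and cell type markers were fixed by symbol and not analysed here, because the tables used pair no Ensembl ID with a symbol. RefSeq promoter windows (GRCh38.p14) were matched by symbol and searched with a script in Python 3.11.15.

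Same-numbered arrays were checked for pairing by the correlation across gene IDs of their deviations from the group means. For WT and Mock it was 0.14, 0.46 and 0.36, and for Y55F and S112A 0.61, 0.12 and 0.40, all above 0.1. Each of the remaining 4 comparisons had a pair under 0.1, the lowest being -0.29 for replicate 3 of S112A and Mock. Arrays of unlike numbers were not compared in this way, so the correlations cannot establish a pairing, and the labels state none. The alternatives were a filter on low values, only the groups compared, the replicate block, array weights, 2 other scalings, eBayes with trend and robust, a minimum of 1.5-fold and leaving out each array. Array weights ran from 0.47 to 1.35 except for Mock replicate 1 (5.31) and S112A replicate 2 (6.06), so weighted fits leaned on these arrays.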

Additional observations from a re-analysis of the deposited data

How the results depend on the processing

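Of 1080 values of single genes under the alternatives, 1003 kept their direction and side of the threshold, 20 newly passed, 39 no longer passed and 18 changed sign, none of them past the threshold. The number of the 9 genes past the test moved by over 1.5 times as follows, and the cause was not tested unless named. Brackets after a setting give the calls over all 24916 IDs in that fit. For WT against Mock (0) the number of the 9 was 1 with only the groups compared (2546), the replicate block (2662) or median centring (2233). It was 3 with array weights (4230), FOS, FOSL1 and JUN, and 0 to 1 leaving out 1 array (1788 to 2481). For S112A against Mock (2) it was 4 with array weights (9119), where FOSL1 joined as lower and ATF3 as higher. It was 0 at a minimum of 1.5-fold (745) and 1 to 2 leaving out 1 array (2467 to 3325). For S112A against WT (3) it was 5 with the replicate block (5804), where FOS and JUN joined. It was 0 at 1.5-fold (1634) and 0 to 4 leaving out 1 array (4351 to 5357). For Y55F against WT (6) it was 2 at 1.5-fold (1153) and 3 to 7 leaving out 1 array (3755 to 5083). The F test's 7 genes fell to 4 at 1.5-fold (2688). A minimum fold can only lower a count. The replicate block changed no other call of the 9 genes. Array weights also added ATF3 in Y55F against Mock, FOS in S112A against WT, and FOSL2 and EGR1 in Y55F against S112A.

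The sign changes were in small log2 differences. In S112A against Mock, array weights gave 0.10 for FOS, 0.22 for JUN and -0.036 for JUND, and median centring gave 0.0097 for FOSL2. Leaving out 1 array gave -0.13 to 0.014 for FOS, -0.079 to 0.27 for FOSB, -0.11 to 0.045 for FOSL2, -0.18 to 0.048 for JUN and -0.11 to 0.11 for JUND. In S112A against WT, FOSL2 was -0.083 with array weights, and leaving out 1 array gave -0.055 to 0.10 for FOSL2 and -0.019 to 0.15 for ATF3. The same range was -0.051 to 0.15 for EGR1 in WT against Mock and -0.0091 to 0.10 for ATF3 in Y55F against S112A.

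Over all gene IDs, array weights raised the calls to 4230 from 2353 (WT against Mock), 9119 from 3238 (S112A against Mock), 8265 from 5243 (S112A against WT) and 11786 from 7292 (F test). At 1.5-fold they were 711, 745 and 901 for WT, S112A and Y55F against Mock, 1634 and 1153 for S112A and Y55F against WT, 1184 for Y55F against S112A and 2688 for the F test. Array signal over background was not analysed, which limits what the low levels of ATF3 can show.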
